A study of Mus musculus with 28 samples.

Results

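Expression of 7 transcription factors that set effector or memory fate in T cells was followed through stimulated mouse CD4 and CD8 T cells given a histone deacetylase inhibitor. The 7 genes, Irf4, Irf8, Prdm1, Bcl6, Id2, Id3 and Zeb2, are 7 of the 18193 genes on the array. They were chosen as a set with earlier results of these data known. Each gene was represented by its brightest probe set, the one with the highest mean over the 28 arrays. All 7 passed the filter on low values that left 9877 genes for testing.

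The series asks how romidepsin and vorinostat act on gene expression in T cells. Both drugs block histone deacetylases, the enzymes that take acetyl groups off histones and other proteins. CD4 and CD8 T cells were isolated from mouse spleen by negative selection and stimulated for 2 days with plate-bound anti-CD3 at 3 µg/ml and soluble anti-CD28 at 5 µg/ml. All groups were stimulated in this way. The drug groups then received romidepsin at 2, 10 or 30 nM or vorinostat at 0.5, 2 or 10 µM for 1 day, and the control of each cell type was labelled only as stimulated, with no vehicle named. Strain, sex and age are not given in the labels. Each of the 14 groups held 2 arrays, numbered replicate 1 and replicate 2, so n is 2 for every mean. The labels do not say whether the replicates came from separate animals, so p-values measure only the spread between these arrays, which may be technical.

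IRF4 is induced by T cell receptor signalling and, with BATF-AP-1 partners, drives clonal expansion and effector differentiation. IRF8 is best known from myeloid cells, dendritic cells and B cells, and is also induced in activated CD8 T cells. Prdm1 encodes Blimp-1, a repressor that promotes terminal effector differentiation, and BCL6 is its opponent, a repressor needed for follicular helper T cells and for memory precursors. ID2 and ID3 bind E proteins and keep them off DNA, with ID2 tied to effector cells and ID3 to memory precursors. ZEB2 acts with T-bet in terminally differentiated effector CD8 cells.

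Expression values are log2 values after GCRMA normalization, so a difference of 1 is a doubling. A probe set counted as detected over 4.26, the mode of all values plus 2. Where a group lay under this level, a fold is given as a lower bound from the group means. The adjusted p-value beside a bound tests the values themselves and not the bound. Differences were tested with limma, and adjusted p-values follow the Benjamini-Hochberg method over the 9877 genes of a contrast, with a threshold of 0.05. An error after ± is the standard error of a difference. The arrays of replicate 1 and replicate 2 stood apart in both cell types, and equal numbers moved together, so results are also given from a fit with the replicate number as a block where that changes a call. From 8454 to 9327 genes were detected per array. In beta-actin, whose 3′ probes exceed the 5′ ones more as RNA degrades, that excess was 0.784 to 0.944 in the controls. With vorinostat at 10 µM it reached 1.62 and 1.09 in CD4 cells and 1.43 and 1.16 in CD8 cells. With romidepsin at 30 nM it was 1.55 and 0.971 in CD4 cells and 1.23 and 0.901 in CD8 cells. In Gapdh the excess was 0.202 and 0.161 in the CD4 controls and 0.339 and 0.081 with vorinostat at 10 µM. In CD8 cells these Gapdh values were 0.195 and 0.077, then 0.256 and 0.133. The part of these excesses in the results was not tested.

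The labelled cell types were checked against their markers. Cd8a ranged from 9.34 upward in CD8 arrays and reached no more than 6.07 in CD4 arrays. Cd8b1 ran from 9.93 to 12.60 in CD8 arrays and from 5.32 to 8.28 in CD4 arrays, all over the detection level. Zbtb7b overlapped between the cell types, at 4.53 to 6.87 in CD4 and 3.88 to 5.22 in CD8 arrays. Cd4 was at most 2.34 in the CD8 arrays and ran from 2.39 to 8.55 in the CD4 arrays, where 3 of the 14 arrays lay under the detection level. All 6 T cell markers, Cd3d, Cd3e, Cd3g, Cd2, Cd5 and Cd28, were detected in all 28 arrays. Their summed log2 level was lower at the highest doses. In CD4 cells it was 14.66 and 15.03 in the controls, 12.70 and 13.77 with romidepsin at 30 nM and 13.0 and 13.81 with vorinostat at 10 µM. In CD8 cells it was 14.46 and 15.04 in the controls, 13.20 and 14.55 with romidepsin at 30 nM and 12.65 and 13.88 with vorinostat at 10 µM. The summed level of Cd4 and Zbtb7b went from 8.68 and 8.55 in the CD4 controls to 4.90 and 5.42 with romidepsin at 30 nM. That of Cd8a and Cd8b1 was 7.74 and 8.33 in the same CD4 controls. In CD8 cells it went from 12.57 and 12.91 in the controls to 10.67 and 11.78 with vorinostat at 10 µM. The part of these marker levels in the results on the 7 factors was not tested. In whole-sample RNA, fewer cells of a type and less RNA per cell cannot be told apart.

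Under stimulation alone CD4 and CD8 cells differed in most of these factors. Of the 7 genes, 5 passed the test between the controls, 2 higher and 3 lower in CD8 cells, against 6.22% of all genes tested (2.42% higher and 3.8% lower). Irf4, Prdm1 and Id2 were higher in CD4 cells, and Bcl6 and Irf8 were higher in CD8 cells. With the replicate block 6 of 7 passed, against 37.5% of all genes. The median of the absolute differences was 2.21 over the 7 genes and 0.33 over all genes.

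Irf4 stood at 12.54 and 12.62 in the CD4 control arrays and at 10.39 and 10.35 in the CD8 control arrays, a difference of -2.21 ± 0.21 (adjusted p = 4.7e-06). Prdm1 stood at 6.94 and 6.48 in CD4 cells and at 3.02 and 3.21 in CD8 cells, both CD8 values under the detection level. Prdm1 was thus at least 5.47-fold lower in CD8 control cells, with the detection level taken as its value there (adjusted p = 0.000349). Neither gene had an array of one cell type inside the range of the other.

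Id2 was 14.64 and 13.67 in CD4 controls and 11.53 and 11.64 in CD8 controls (difference -2.57 ± 0.33, adjusted p = 0.000104), and its other probe sets gave -3.23 and -1.73, which passed only with the block (adjusted p = 0.111 and 0.496 without it). Bcl6 went the other way, from 4.97 and 5.72 in CD4 controls to 9.21 and 9.27 in CD8 controls, and its difference of 3.89 ± 0.43 was the largest among the factors detected in both controls (adjusted p = 2.13e-05). Irf8 was 10.74 and 10.81 in CD4 controls and 12.00 and 12.25 in CD8 controls, a difference of 1.34 ± 0.31 (adjusted p = 0.0124). The control difference in Irf8 rested on the fit and the probe set: the other Irf8 probe set gave 0.80 (adjusted p = 0.496), equal array medians gave an adjusted p of 0.15, and leaving out any 1 of the 4 control arrays gave 0.0523 to 0.118. Id3 differed by 1.48 ± 0.62, which did not pass without the block (adjusted p = 0.23) and passed with it (adjusted p = 4.78e-06), with quantile normalization (adjusted p = 0.0203) and with equal array medians (adjusted p = 0.0108). Zeb2 differed by 1.04 ± 1.27 and passed in neither fit (adjusted p = 0.939 without the block).

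**Figure D1:**
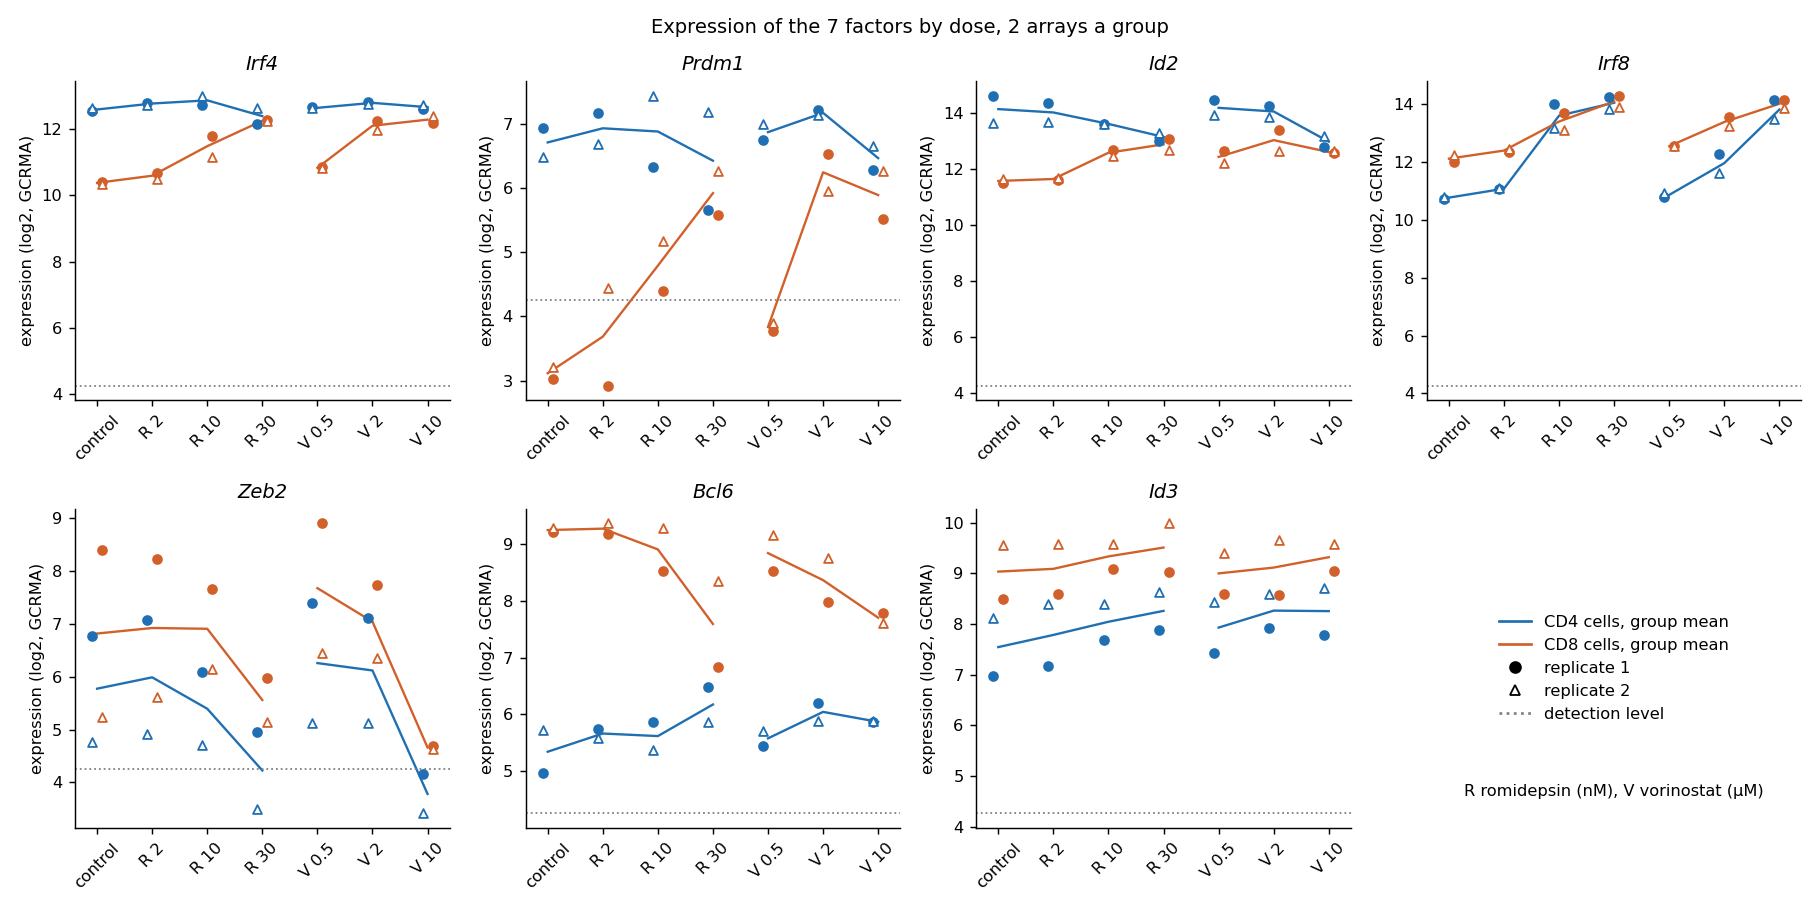
Expression (log2, GCRMA) of the 7 factors in each array, by drug and dose, in CD4 (blue) and CD8 (orange) cells. Lines join the means of the 2 arrays of a group within each drug, filled circles are replicate 1, open triangles are replicate 2 and the dotted line is the detection level of 4.26. Irf4, Prdm1 and Id2 of CD8 cells go from far under the CD4 values in the controls to near them at the highest doses.

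Across the drug groups, the 7 genes gave 42 comparisons with the control in each cell type. In CD8 cells 15 of the 42 passed the test (13 rises and 2 falls), against 5.97% of all such comparisons over all genes (3.94% rises and 2.03% falls). In CD4 cells 5 of 42 passed (3 rises and 2 falls), against 8.22% (5.28% rises and 2.94% falls), a share near that of all genes. With the replicate block 20 passed in CD8 cells, against 28.6% of all such comparisons, and 13 in CD4 cells, against 33.8%, again near the share of all genes. No factor passed at romidepsin 2 nM or vorinostat 0.5 µM in either cell type or fit.

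IRF4 had the most calls of the set in CD8 cells, and none in CD4 cells by its brightest probe set. In CD8 cells Irf4 read 10.39 and 10.35 in the controls, 10.67 and 10.50 with romidepsin at 2 nM, 11.79 and 11.16 at 10 nM and 12.26 and 12.22 at 30 nM. With vorinostat it read 10.84 and 10.81 at 0.5 µM, 12.23 and 11.95 at 2 µM and 12.17 and 12.38 at 10 µM. Every drug array of CD8 cells lay above both controls.

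Irf4 rose in CD8 cells 3.66-fold with romidepsin at 30 nM (1.87 ± 0.21 on the log2 scale, adjusted p = 3.3e-05), 3.29-fold with vorinostat at 2 µM (1.72 ± 0.21, adjusted p = 0.000228) and 3.74-fold at 10 µM (1.90 ± 0.21, adjusted p = 1.72e-05). Romidepsin at 10 nM raised it 2.15-fold (1.10 ± 0.21, adjusted p = 0.0137). That call at 10 nM was lost with equal array medians (adjusted p = 0.182) and without the romidepsin replicate 1 array (change 0.79, adjusted p = 0.36) or either control array (adjusted p = 0.119 and 0.106), by the mean of its probe sets (adjusted p = 0.189) and by the other probe set (0.98, adjusted p = 0.688). At the higher doses that probe set moved alike in CD8 cells, by 1.62 with romidepsin at 30 nM (adjusted p = 0.0271) and by 1.40 with vorinostat at 10 µM (adjusted p = 0.0352).

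In CD4 cells the brightest Irf4 probe set stayed between 12.13 and 13.00 over all 14 arrays. Its changes ran from -0.20 with romidepsin at 30 nM (95% interval -0.65 to 0.25) to 0.27 at 10 nM (-0.18 to 0.72), and none passed. The other Irf4 probe set had a lower mean than the control in every drug group of CD4 cells. It stood at 8.64 and 8.12 in the controls, at 6.25 and 6.91 with romidepsin at 30 nM and at 6.38 and 7.29 with vorinostat at 10 µM. The changes were -1.81 (adjusted p = 0.00833) and -1.54 (adjusted p = 0.0235), where the brightest probe set gave -0.20 and 0.07. The 2 probe sets of Irf4 therefore disagree in CD4 cells: their changes differed in sign at every dose except romidepsin 30 nM, and a statement that Irf4 held its level there depends on the probe set.

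**Figure D2:**
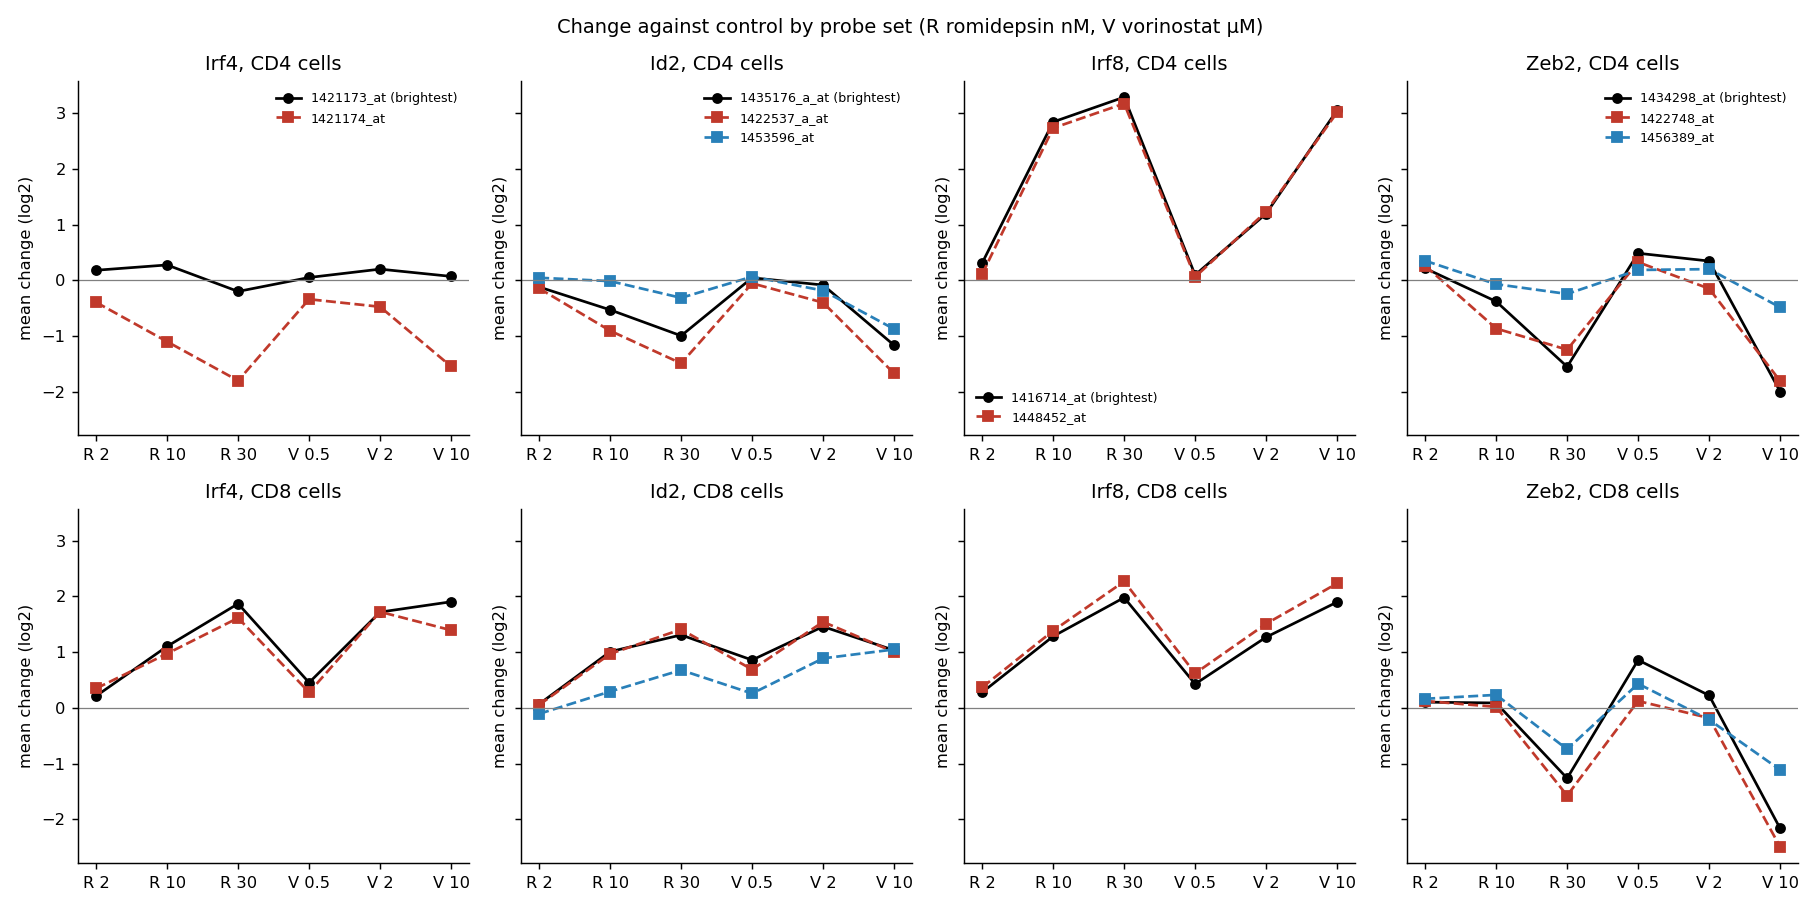
Mean change against control (log2, 2 arrays a group) by drug and dose for each detected probe set of Irf4, Id2, Irf8 and Zeb2, in CD4 (upper row) and CD8 cells (lower row). Black circles are the brightest probe set and coloured squares the others. For Irf4 the probe sets part in CD4 cells (-1.81 against -0.20 with romidepsin at 30 nM) and run together in CD8 cells.

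Prdm1 passed from undetected to detected in CD8 cells at the higher doses. Its CD8 values were 3.02 and 3.21 in the controls, 2.92 and 4.45 with romidepsin at 2 nM, 4.40 and 5.18 at 10 nM and 5.58 and 6.26 at 30 nM. With vorinostat they were 3.77 and 3.90 at 0.5 µM, 6.53 and 5.96 at 2 µM and 5.51 and 6.27 at 10 µM. Both control arrays, both arrays at vorinostat 0.5 µM and 1 array at romidepsin 2 nM lay under the detection level, so rises are given as lower bounds against that level.

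Prdm1 was at least 3.16-fold higher than in the CD8 controls with romidepsin at 30 nM (adjusted p = 0.00257), at least 3.96-fold with vorinostat at 2 µM (adjusted p = 0.00342) and at least 3.1-fold at 10 µM (adjusted p = 0.00162). At romidepsin 10 nM the bound was 1.45-fold, and the change passed only with the block (adjusted p = 0.266 without and 0.0221 with it). The call at vorinostat 2 µM was lost without the replicate 1 array of the controls (adjusted p = 0.0532) or of that dose (adjusted p = 0.0714). In CD4 cells Prdm1 ran from 5.66 to 7.44 over the 14 arrays. Its CD4 changes lay between -0.28 and 0.46 and none passed; the 95% interval with romidepsin at 30 nM was -1.41 to 0.85, which holds a change of -1. A single probe set naming Prdm1 was on the array.

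Id2 moved in opposite directions in the 2 cell types. In CD8 cells it read 11.53 and 11.64 in the controls, 12.71 and 12.48 with romidepsin at 10 nM, 13.09 and 12.70 at 30 nM, 13.42 and 12.67 with vorinostat at 2 µM and 12.59 and 12.65 at 10 µM. In CD4 cells it read 14.64 and 13.67 in the controls, 13.03 and 13.29 with romidepsin at 30 nM and 12.80 and 13.18 with vorinostat at 10 µM. All arrays at these doses lay above the CD8 controls or below the CD4 controls.

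Id2 rose in CD8 cells by 1.31 ± 0.33 with romidepsin at 30 nM (adjusted p = 0.0183), by 1.46 ± 0.33 with vorinostat at 2 µM (adjusted p = 0.0232) and by 1.04 ± 0.33 at 10 µM (adjusted p = 0.0369). In CD4 cells Id2 fell, with changes of -0.99 ± 0.33 with romidepsin at 30 nM (adjusted p = 0.0442) and -1.17 ± 0.33 with vorinostat at 10 µM (adjusted p = 0.0222). The CD4 falls were larger in replicate 1 (-1.60 and -1.84) than in replicate 2 (-0.38 and -0.49), and without the replicate 1 control they were -0.51 and -0.68 (adjusted p = 0.438 and 0.291). All 5 Id2 calls were lost with equal array medians (adjusted p = 0.112 to 0.193) and all 3 CD8 calls without either control array (adjusted p = 0.0669 to 0.205), and each of the 5 without the replicate 1 array of its dose (adjusted p = 0.127 to 0.341). The CD4 call with romidepsin and the CD8 call with vorinostat at 10 µM were also lost without the replicate 2 array of their dose (adjusted p = 0.0865 and 0.125). All 5 were lost with the mean of all probe sets (adjusted p = 0.251 to 0.481), and those in CD4 cells with romidepsin and in CD8 cells with vorinostat at 10 µM also with no filter on low values (adjusted p = 0.0662 and 0.055). All 5 passed with the replicate block (adjusted p = 0.00103 to 0.00556). With the block and 1 array left out, 3 of the 5 were lost. The CD4 change with romidepsin was then -0.59 without the replicate 1 control (adjusted p = 0.126) and -0.68 without the replicate 1 array of its dose (adjusted p = 0.0984). The CD4 change with vorinostat was -0.77 and -0.78 without the same arrays (adjusted p = 0.056 and 0.0508), and the CD8 change with vorinostat at 10 µM was 0.84 without the replicate 1 control (adjusted p = 0.0577). Both other Id2 probe sets gave the same signs as these 5 calls, and neither passed without the block (adjusted p = 0.36 to 0.924). The dimmer of them was over the detection level in only 10 arrays.

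Irf8 rose in both cell types, and was the only factor of the set that rose in CD4 cells without the block. In CD4 cells it read 10.74 and 10.81 in the controls, 11.06 and 11.11 with romidepsin at 2 nM, 14.03 and 13.20 at 10 nM and 14.26 and 13.86 at 30 nM. With vorinostat it read 10.81 and 10.93 at 0.5 µM, 12.30 and 11.64 at 2 µM and 14.16 and 13.49 at 10 µM. From romidepsin 10 nM and vorinostat 2 µM upward the CD4 drug arrays stood at least 0.83 above the control of their own replicate number.

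Irf8 rose in CD4 cells 7.13-fold with romidepsin at 10 nM (2.83 ± 0.31, adjusted p = 3.4e-05), 9.73-fold at 30 nM (3.28 ± 0.31, adjusted p = 3.28e-06) and 8.28-fold with vorinostat at 10 µM (3.05 ± 0.31, adjusted p = 9.68e-06). Vorinostat at 2 µM changed it by 1.19 ± 0.31, which passed only with the block (adjusted p = 0.0752 without and 0.00219 with it). The other Irf8 probe set gave 2.73, 3.17 and 3.01 for the 3 called comparisons (adjusted p = 0.00132, 0.000146 and 0.000307).

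In CD8 cells Irf8 read 12.00 and 12.25 in the controls, 12.36 and 12.45 with romidepsin at 2 nM, 13.71 and 13.11 at 10 nM and 14.31 and 13.90 at 30 nM. With vorinostat it read 12.56 and 12.55 at 0.5 µM, 13.55 and 13.24 at 2 µM and 14.17 and 13.88 at 10 µM. Every drug array lay above both controls. The rises were 3.96-fold with romidepsin at 30 nM (1.98 ± 0.31, adjusted p = 0.000555), 3.75-fold with vorinostat at 10 µM (1.91 ± 0.31, adjusted p = 0.000417) and 2.42-fold at 2 µM (1.27 ± 0.31, adjusted p = 0.0302). The last of these was lost with equal array medians (adjusted p = 0.156), by the other probe set (1.51, adjusted p = 0.0951) and without any 1 of its 4 arrays (adjusted p = 0.0774 to 0.3). With romidepsin at 10 nM Irf8 differed by 1.29 ± 0.31, which did not pass without the block (adjusted p = 0.0572) and passed with it (adjusted p = 0.00238) and with the mean of all probe sets (1.34, adjusted p = 0.046).

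Since Irf8 is also a gene of dendritic cells and B cells, their markers were read beside it. Of the 7 dendritic cell markers on the array, Itgax, Flt3, Xcr1, Siglech and Cd209a were under the detection level in all 28 arrays, Zbtb46 was over it in 3 arrays and Ccr9 in 5. The summed dendritic level lay between 5.18 and 5.65 in the CD4 arrays, drug and control alike, and between 5.43 and 6.59 in the CD8 arrays. The summed level of the 7 B cell markers was 6.98 and 10.36 in the CD4 controls and 5.32 and 6.45 with romidepsin at 30 nM. In CD8 cells it was 7.11 and 9.10 in the controls and 5.36 and 7.28 at that dose. Of the B cell markers Cd79b was over the detection level in 22 arrays, at up to 9.86, and Ms4a1 in 12, at up to 8.16. Fcer2a was over it in 3 and Cd79a and Blk in 1 each, while Pax5 and Cr2 were under it everywhere. The part of these marker levels in the Irf8 result was not tested. For Prdm1, a gene of plasma cells, the plasma cell markers Jchain and Tnfrsf17 were under the level in all arrays. The summed level of the 4 plasma cell markers was higher in the drug groups of CD8 cells, through Sdc1 and Derl3. It went from 6.50 and 6.66 in the CD8 controls to 8.77 and 8.87 with vorinostat at 10 µM. The CD4 sum rose too, from control values of 7.32 and 6.36 to 8.76 and 8.44 under romidepsin 30 nM. Vorinostat 10 µM gave CD4 sums of 8.15 and 7.93, although no Prdm1 change passed in CD4 cells. The part of these sums in the Prdm1 result was not tested.

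Zeb2 was lower at the highest doses in both cell types, with arrays of unequal replicate numbers far apart. In CD8 cells it read 8.41 and 5.23 in the controls and 4.68 and 4.64 with vorinostat at 10 µM. In CD4 cells it read 6.78 and 4.77 in the controls, 4.96 and 3.49 with romidepsin at 30 nM, the lower of these under the detection level, and 4.15 and 3.41 with vorinostat at 10 µM, where both arrays were under the detection level. The difference between replicate numbers in the controls was as large as the drug differences.

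The Zeb2 changes were -2.16 ± 1.27 in CD8 cells with vorinostat at 10 µM (adjusted p = 0.273, and 0.00324 with the block) and -1.55 ± 1.27 in CD4 cells with romidepsin at 30 nM (adjusted p = 0.472, and 0.0235 with the block). In CD4 cells with vorinostat at 10 µM the mean of Zeb2 was at least 2.86-fold lower, with the detection level taken as its value there. That bound rests on the mean of CD4 control arrays that lay 2.02 apart. The change in the values themselves passed only with the block (adjusted p = 0.336 without and 0.00576 with it). A second Zeb2 probe set, in which replicate 1 was not the higher one throughout, gave a change of -2.49 in CD8 cells with vorinostat at 10 µM that passed without the block (adjusted p = 0.0357). It gave -1.25 in CD4 cells with romidepsin at 30 nM and passed there in neither fit (adjusted p = 0.324, and 0.0683 with the block). With vorinostat at 10 µM in CD4 cells it gave -1.81, which passed only with the block (adjusted p = 0.138 without and 0.0126 with it). The other detected Zeb2 probe set, over the detection level in 12 arrays, gave -1.12 in CD8 cells with vorinostat at 10 µM (adjusted p = 0.301, and 0.0133 with the block). In CD4 cells this last probe set gave -0.25 with romidepsin at 30 nM and -0.49 with vorinostat at 10 µM and passed in neither fit (adjusted p = 0.569 and 0.252 with the block). In CD8 cells with romidepsin at 30 nM the Zeb2 difference was -1.26 by the brightest probe set (adjusted p = 0.694). At all lower doses of both drugs and cell types it lay between -0.38 and 0.86 by that probe set. None of these passed in either fit. In CD8 cells with romidepsin at 30 nM the second probe set gave -1.57, which passed only with the block (adjusted p = 0.265 without and 0.0309 with it). The last probe set gave -0.74 there and passed in neither fit (adjusted p = 0.0943 with the block).

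Among the factors tied to memory and follicular helper fate, Bcl6 fell in CD8 cells, where it had been high. It read 9.21 and 9.27 in the CD8 controls, 9.17 and 9.36 with romidepsin at 2 nM, 8.52 and 9.28 at 10 nM and 6.83 and 8.35 at 30 nM. With vorinostat it read 8.52 and 9.15 at 0.5 µM, 7.97 and 8.75 at 2 µM and 7.79 and 7.61 at 10 µM. All arrays at the highest doses lay below both controls, and the arrays at romidepsin 10 nM straddled them.

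Bcl6 fell in CD8 cells, with changes of -1.65 ± 0.43 with romidepsin at 30 nM (adjusted p = 0.0201) and -1.53 ± 0.43 with vorinostat at 10 µM (adjusted p = 0.0173). The change with romidepsin was -2.38 in replicate 1 and -0.92 in replicate 2, and without the replicate 1 array of that dose the change was -0.89 (adjusted p = 0.336). Leaving out either control array also ended both calls (adjusted p = 0.0789 to 0.112), as did leaving out either vorinostat array for the call at 10 µM (adjusted p = 0.068 and 0.0859). These losses are from the fit without the block. With the block and 1 array left out, the CD8 change of Bcl6 ran from -2.22 to -1.07 with romidepsin at 30 nM. With vorinostat at 10 µM it ran from -1.95 to -1.12. In CD4 cells Bcl6 stayed between 4.97 and 6.48. Its rise there of 0.83 ± 0.43 with romidepsin at 30 nM passed only with the block (adjusted p = 0.202 without and 0.0426 with it). The other Bcl6 probe set was under the detection level in all 28 arrays and gave no check.

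Id3 changed little beside its replicate difference. In CD4 cells it read 6.97 and 8.12 in the controls, 7.89 and 8.63 with romidepsin at 30 nM and 7.79 and 8.72 with vorinostat at 10 µM. In CD8 cells it read 8.50 and 9.57 in the controls and 9.03 and 9.99 with romidepsin at 30 nM. In each of these groups the replicate 2 array read higher than its replicate 1 array by more than 0.7. Within a replicate number Id3 was higher than the control by 0.92 and 0.50 in CD4 cells with romidepsin at 30 nM. No Id3 change passed without the block, and 5 passed with it: 0.50, 0.71, 0.72 and 0.71 in CD4 cells at romidepsin 10 and 30 nM and vorinostat 2 and 10 µM (adjusted p = 0.0179, 0.00117, 0.00446 and 0.00137) and 0.48 in CD8 cells at romidepsin 30 nM (adjusted p = 0.0213).

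**Figure D3:**
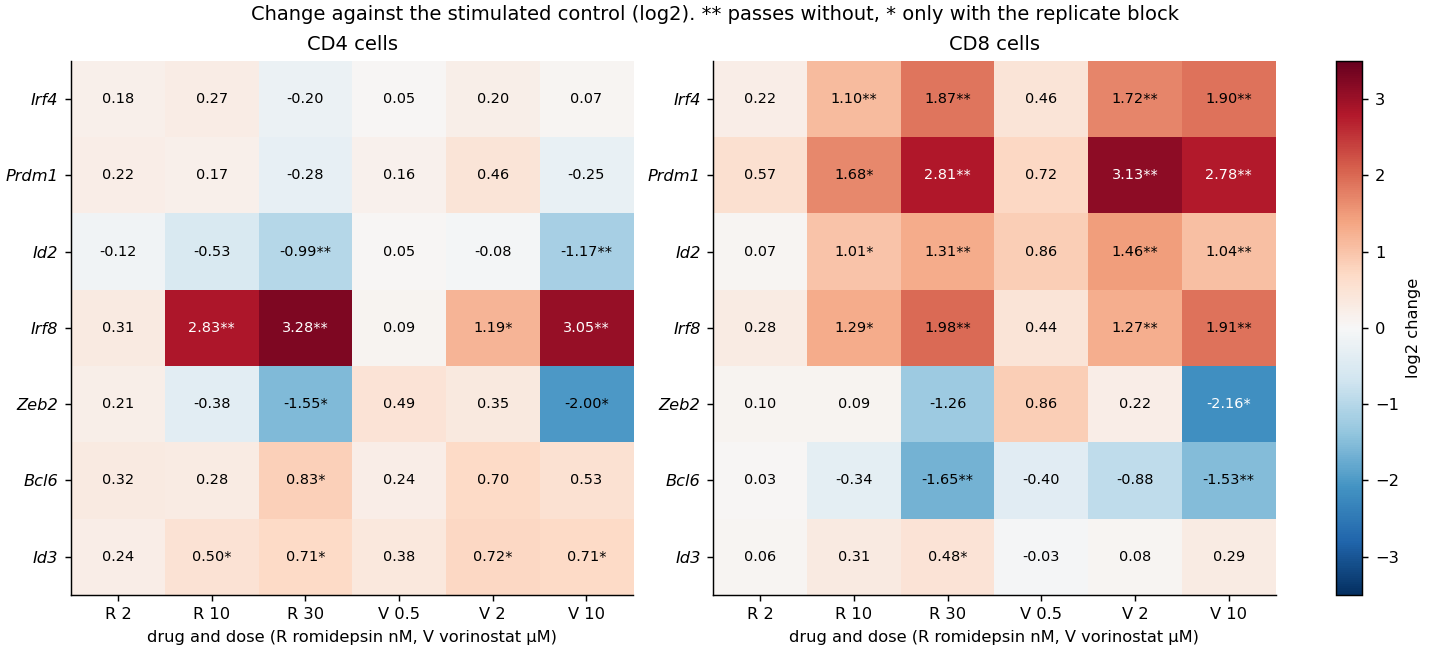
Mean change against the stimulated control (log2, colour and printed value) for the 7 factors at each drug and dose, in CD4 (left) and CD8 cells (right). Double asterisks mark an adjusted p under 0.05 without the replicate block and single ones a pass only with it. In CD8 cells 13 rises and 2 falls carry double asterisks, and in CD4 cells 3 rises (all Irf8) and 2 falls (both Id2). The values printed for Prdm1 in CD8 cells, against controls under the detection level, and for Zeb2 in CD4 cells with romidepsin at 30 nM and vorinostat at 10 µM rest on arrays under that level and do not give the size of a change.

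The difference between the drug responses of CD8 and CD4 cells was tested as an interaction. Of 42 such tests on the 7 genes 4 passed, against 0.277% over all genes, and 14 passed with the replicate block, against 6.35%. Irf4 responded more in CD8 cells by 2.07 ± 0.30 with romidepsin at 30 nM (adjusted p = 0.00329) and by 1.84 ± 0.30 with vorinostat at 10 µM (adjusted p = 0.00778). Id2 did so by 2.30 ± 0.47 (adjusted p = 0.0238) and 2.20 ± 0.47 (adjusted p = 0.0462). With equal array medians all 4 calls were lost (adjusted p = 0.0685 to 0.353) at differences of 1.87 to 2.33, and the Prdm1 difference with romidepsin at 30 nM passed (adjusted p = 0.035). With the mean of all probe sets both Id2 calls were lost (adjusted p = 0.616 and 0.776). The Irf4 call with vorinostat was also lost without the replicate 1 CD4 or the replicate 2 CD8 array at 10 µM (1.77 and 1.73). Both Id2 calls were lost without the replicate 1 CD4 control (1.82 and 1.72) or either CD8 control (2.15 to 2.35). The Id2 call with romidepsin was also lost without the replicate 1 CD4 or either CD8 array at 30 nM (2.11 to 2.49). That with vorinostat was lost without any 1 array at 10 µM (2.01 to 2.39). It was also lost with no filter on low values and with detection asked in at least 14 arrays (adjusted p = 0.0516 and 0.0586). The other Id2 probe sets gave 2.90 and 0.99 with romidepsin and 2.67 and 1.92 with vorinostat, and none passed without the block. The probe set that gave 0.99 and 1.92 was over the detection level in only 10 arrays, so these values do not give a size.

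For Prdm1 no size is given to the response difference, since its CD8 controls lay under the detection level. Prdm1 responded more in CD8 cells with romidepsin at 30 nM and vorinostat at 10 µM, and both differences passed with the block but not without it (adjusted p = 0.0682 and 0.117 without, 0.0055 and 0.00873 with it). Bcl6 gave -2.47 ± 0.60 and -2.06 ± 0.60 at these doses, also passing with the block but not without it (adjusted p = 0.0682 and 0.242 without, 0.00358 and 0.0135 with it). Irf8 responded less in CD8 cells, by -1.30 ± 0.43 and -1.14 ± 0.43, again only with the block (adjusted p = 0.279 and 0.599 without, 0.0158 and 0.0392 with it), and its other probe set gave -0.90 and -0.77 and passed in neither fit (adjusted p = 0.202 and 0.325 with the block). Id3 and Zeb2 gave no response difference that passed in either fit.

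As a description of the same values, the distance between the cell types was smaller at the highest doses than in the controls for all factors but Zeb2, and least so for Id3. The Irf4 difference, CD8 minus CD4, went from -2.21 in the controls to -1.38 with romidepsin at 10 nM and -0.14 at 30 nM. Prdm1, at least 5.47-fold lower in the CD8 than in the CD4 controls, differed by -0.51 with romidepsin at 30 nM and -0.57 with vorinostat at 10 µM, where all arrays detected it. Id2 went from -2.57 to -0.27 and -0.37 at these doses. Bcl6 went from 3.89 to 1.42 and 1.83, and Irf8 from 1.34 to 0.05 and 0.20, though at vorinostat 0.5 and 2 µM the Irf8 difference was 1.69 and 1.43. The Id3 difference was 1.48 in the controls, 1.24 with romidepsin at 30 nM and 1.07 with vorinostat at 10 µM, and lay between 0.85 and 1.48 over all groups. The Zeb2 difference lay between 0.92 and 1.51 in the groups other than vorinostat 10 µM, where both CD4 arrays were under the detection level.

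**Figure D4:**
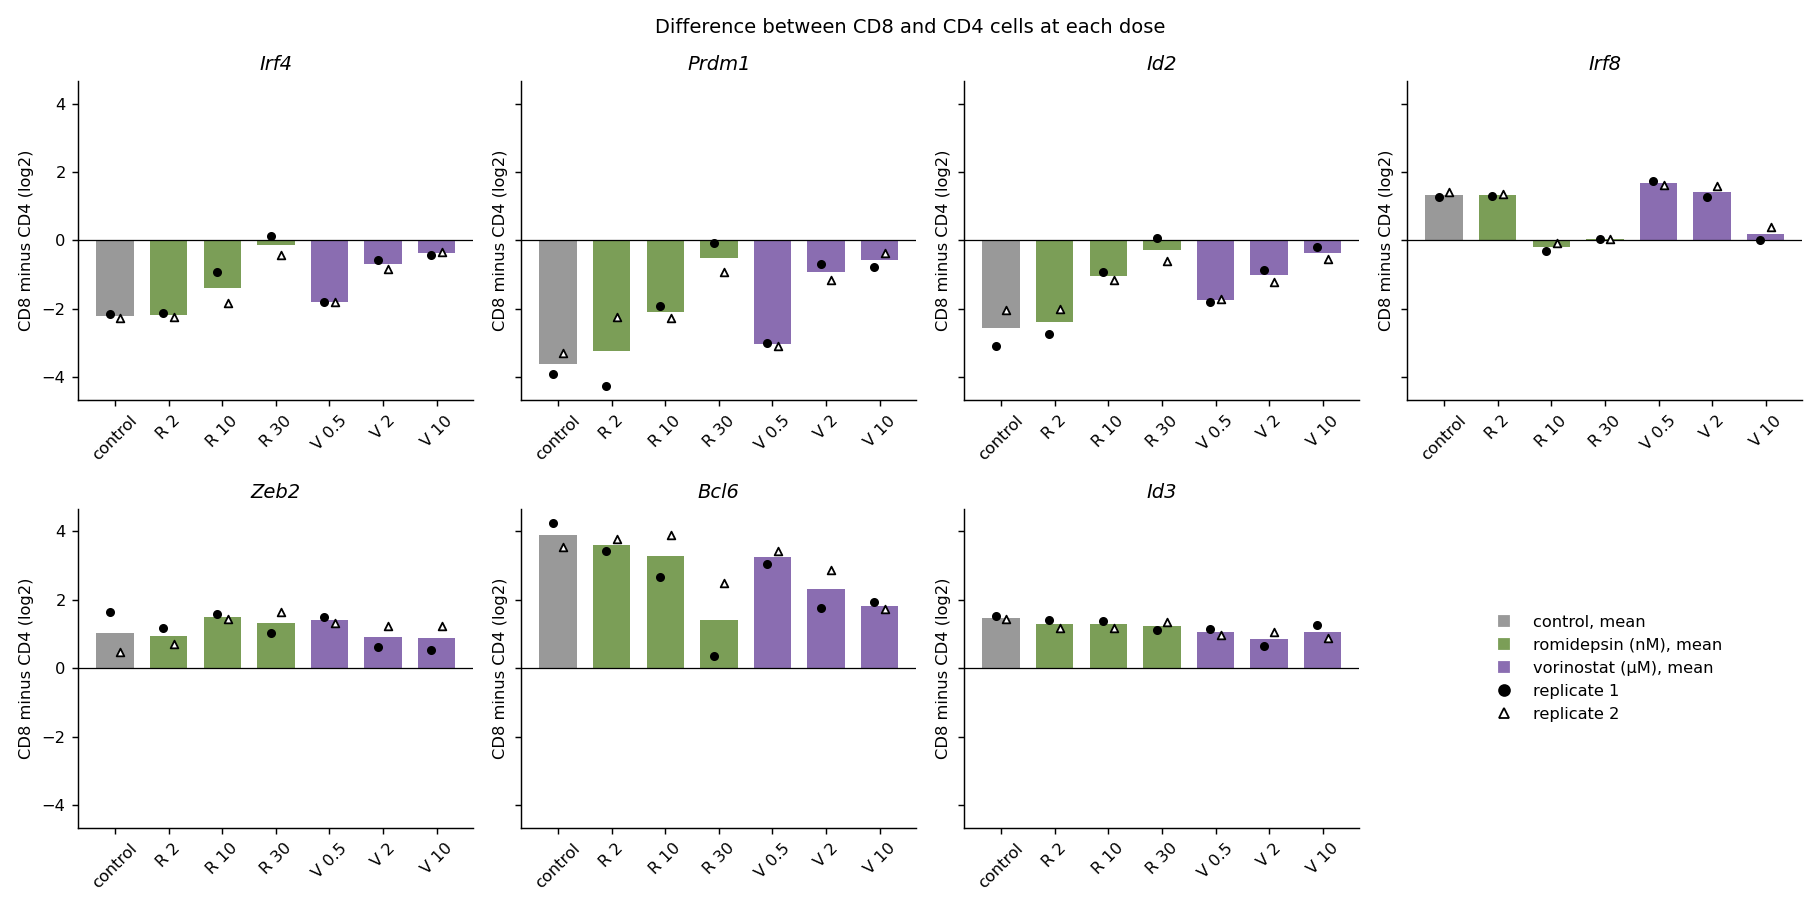
Difference between CD8 and CD4 cells (log2, CD8 minus CD4) at each drug and dose for the 7 factors. Bars are the mean over both replicates, filled circles replicate 1 and open triangles replicate 2. Irf4 and Id2 go from -2.21 and -2.57 in the controls to -0.14 and -0.27 with romidepsin at 30 nM, and Bcl6 from 3.89 to 1.42. Bars of Prdm1 in the controls, at romidepsin 2 nM and at vorinostat 0.5 µM, and of Zeb2 at romidepsin 30 nM and vorinostat 10 µM, include arrays under the detection level and do not give the size of a difference.

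Neighbouring doses were compared next. Of 28 steps in CD4 cells 2 passed, against 2.46% over all genes, both in Irf8: the step from romidepsin 2 to 10 nM (2.53 ± 0.31, adjusted p = 0.00026) and from vorinostat 2 to 10 µM (1.86 ± 0.31, adjusted p = 0.00311). Of 28 steps in CD8 cells 1 passed, against 1.43%: Irf4 from vorinostat 0.5 to 2 µM (1.26 ± 0.21, adjusted p = 0.0186), a call lost with quantile normalization (adjusted p = 0.0502), equal array medians (adjusted p = 0.225) and the mean of its probe sets (adjusted p = 0.0983), and without any 1 of its 4 arrays (adjusted p = 0.0781 to 0.499). With the block 5 and 10 steps passed, against 24.9% and 20.0%. The Irf8 step between vorinostat doses in CD4 cells was lost without the replicate 1 array at 10 µM (adjusted p = 0.0594). No step of Id3 passed in either fit.

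Over the 14 group means Irf4 and Prdm1 ran closest together of the 21 pairs of factors, with a Pearson r of 0.990. Id2 followed them (r = 0.908 with Prdm1 and 0.880 with Irf4), and Bcl6 ran against all 3 (r = -0.890 with Prdm1, -0.898 with Irf4 and -0.891 with Id2). Irf8 ran with neither Irf4 (r = -0.011) nor Prdm1 (r = -0.075), and Id3 ran with Bcl6 (r = 0.873). These are descriptions: the 14 means share arrays of the same 2 replicate sets, the cell type difference enters every r, and the lowest Prdm1 and Zeb2 means lie under the detection level. Among all tested genes, those most like Irf4 were Ndrg1 (r = 0.987), Trib2 (0.983) and Flot1 (0.977), and those most like Prdm1 were Flot1 (0.987), Trib2 (0.984) and the ETS family repressor gene Etv6 (0.982). Most like Irf8 were Wdr47 (r = 0.986), the interferon-induced GTPase gene Iigp1 (0.984) and Tpgs2 (0.984). For Bcl6 they were Stk4 (0.981), A930006K02Rik (0.980) and Mndal (0.980), and for Id2 Rab37 (0.983), Socs2 (0.978) and Ajuba (0.978). For Id3 they were Cmpk1 (0.970), Ptpn12 (0.966) and Hip1r (0.961), and for Zeb2 Celf2 (0.977), Foxn2 (0.975) and Ywhaz (0.975).

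The promoters of the 3 factors that ran together, of Bcl6, which ran against them, and of Irf8 are shown for comparison, as the 250 bases before the RefSeq start site in GRCm38.p6, 5′ to 3′ on the strand of the gene, at the first start listed where a gene has several. Capitals mark the matches to the motifs searched on both strands: the IRF repeat (GAAA, any 2 bases, GAAA), the GC box GGGCGG, the E box CACCTG that E proteins and ZEB factors read, the BCL6-type motif TTCNNAGAA, TATAAA and the STAT-type motif TTCNNNGAA. The last was added after the sequences had been read and takes in every match of TTCNNAGAA on either strand.
Irf4 (chr13:30748983-30749232, plus strand): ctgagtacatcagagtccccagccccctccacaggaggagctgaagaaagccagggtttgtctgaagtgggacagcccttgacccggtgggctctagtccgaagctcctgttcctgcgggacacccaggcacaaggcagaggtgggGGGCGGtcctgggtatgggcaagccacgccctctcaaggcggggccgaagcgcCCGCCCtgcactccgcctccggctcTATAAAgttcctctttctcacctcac
Prdm1 (chr10:44458749-44458998, minus strand): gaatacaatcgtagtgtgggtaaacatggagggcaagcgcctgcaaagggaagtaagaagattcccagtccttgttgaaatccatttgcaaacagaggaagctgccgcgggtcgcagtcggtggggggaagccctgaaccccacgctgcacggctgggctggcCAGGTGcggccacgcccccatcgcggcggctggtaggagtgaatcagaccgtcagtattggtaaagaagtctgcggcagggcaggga
Id2 (chr12:25096093-25096342, minus strand): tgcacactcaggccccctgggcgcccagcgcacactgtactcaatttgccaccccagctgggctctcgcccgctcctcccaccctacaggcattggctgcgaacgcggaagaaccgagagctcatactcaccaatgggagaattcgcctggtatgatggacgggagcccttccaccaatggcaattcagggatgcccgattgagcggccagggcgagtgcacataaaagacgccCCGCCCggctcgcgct
Bcl6 (chr16:23988853-23989102, minus strand): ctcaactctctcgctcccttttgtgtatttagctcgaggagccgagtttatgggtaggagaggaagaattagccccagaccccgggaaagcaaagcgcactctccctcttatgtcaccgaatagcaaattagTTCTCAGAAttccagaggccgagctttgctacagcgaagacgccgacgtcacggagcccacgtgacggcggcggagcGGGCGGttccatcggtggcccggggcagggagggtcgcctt
Irf8 (chr8:120736108-120736357, plus strand): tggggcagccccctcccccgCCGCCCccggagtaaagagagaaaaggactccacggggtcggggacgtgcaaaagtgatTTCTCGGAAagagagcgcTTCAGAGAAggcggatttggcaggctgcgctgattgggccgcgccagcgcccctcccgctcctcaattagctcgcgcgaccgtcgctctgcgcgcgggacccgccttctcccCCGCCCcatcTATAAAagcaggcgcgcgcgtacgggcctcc

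The windows of Irf4, Prdm1 and Id2 share no motif that all 3 hold. Irf4 holds TATAAA at base -26 from the start site and 2 GC boxes, Id2 holds a GC box at -16, and Prdm1 holds an E box (read as CAGGTG on its strand) at -87 and no GC box. The Irf8 window holds TATAAA at -31, 2 GC boxes and 2 BCL6-type matches at -171 and -153, and the Bcl6 window holds a GC box at -41 and a BCL6-type match at -118. None of the 5 windows holds the IRF motif. Of 32851 windows of this length over all genes, 32.7% hold a GC box, 17.2% the E box, 12.4% TATAAA, 7.02% the STAT-type motif, 4.43% the BCL6-type motif and 2.98% the IRF motif. A match is a description of these letters and says nothing of binding in these cells.

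The partners and neighbours of the factors were read from lists of genes with known roles, each chosen with earlier results of these data known. Calls in these lists are from the fit without the block unless the block is named. Of 10 tested IRF4 partner genes, 3 fell and none rose in CD4 cells with romidepsin at 30 nM, where 7.91% of all genes fell and 13.3% rose. The median over the list was -1.13, against 0.07 over all genes. Batf, which binds DNA with IRF4, changed by -2.45 (adjusted p = 0.0323), Ikzf1, which encodes Ikaros, by -3.00 (adjusted p = 0.0015) and Ikzf3, which encodes Aiolos, by -2.26 (adjusted p = 0.0384). Jund changed by -1.03 with vorinostat at 10 µM (adjusted p = 0.0462). In CD8 cells with vorinostat at 10 µM 2 partners fell and 1 rose, where 8.49% of all genes fell and 12.1% rose. These were Ikzf1 at -3.33 (adjusted p = 0.000784), Ikzf3 at -3.17 (adjusted p = 0.00576) and Jun at 1.58 (adjusted p = 0.00804).

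Without the block none of 5 other tested IRF genes passed in CD8 cells at any dose. With it 1 rose and 2 fell there with vorinostat at 10 µM, where 31.6% of all genes rose and 32.4% fell. In CD4 cells 1 of the 5 rose without the block at each of the highest doses, where 13.3% (romidepsin) and 10.9% (vorinostat) of all genes rose. It was Irf1, an interferon-induced activator, which rose by 2.23 with romidepsin at 30 nM (adjusted p = 0.0294) and by 2.09 with vorinostat at 10 µM (adjusted p = 0.0449). Without the block none of 4 tested E protein and other ID genes passed in CD4 cells. With it 1 rose and 1 fell there with romidepsin at 30 nM, where 35.4% of all genes rose and 28.3% fell. In CD8 cells 1 of the 4 fell without the block at each of the highest doses, against 2.92% (romidepsin) and 8.49% (vorinostat) of all genes. Tcf3, which encodes the E2A proteins that ID2 and ID3 bind, changed by -0.68 with romidepsin at 30 nM (adjusted p = 0.0295) and by -0.91 with vorinostat at 10 µM (adjusted p = 0.00284).

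Of 9 tested BCL6 partner and follicular helper genes, 5 fell and none rose in CD4 cells with romidepsin at 30 nM, where 7.91% of all genes fell and 13.3% rose, with a median of -2.50 against 0.07 over all genes. Maf, a factor of follicular helper cells, changed by -2.62 (adjusted p = 0.00345), Sh2d1a, which encodes the adaptor SAP, by -2.94 (adjusted p = 0.0131) and Pdcd1, which encodes PD-1, by -2.50 (adjusted p = 0.0251). Il21 changed by -3.48 (adjusted p = 0.000795), and its other detected probe set went the opposite way at romidepsin 10 nM and vorinostat 10 µM. In CD8 cells 3 of the 9 fell and 1 rose with vorinostat at 10 µM, where 8.49% of all genes fell and 12.1% rose, with a median of -1.03 against 0 over all genes. Pdcd1 changed there by -4.78 (adjusted p = 0.000321), Sh2d1a by -3.42 (adjusted p = 0.00528) and Bcor, a BCL6 corepressor gene, by -1.35 (adjusted p = 0.0105). Maf was at least 2.06-fold higher, since its CD8 controls lay under the detection level (adjusted p = 0.0183), and 2 of its 3 other detected probe sets went the opposite way.

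Of 10 tested effector-side genes, 6 fell and none rose in CD4 cells with romidepsin at 30 nM, where 7.91% of all genes fell and 13.3% rose. With vorinostat at 10 µM 7 fell and none rose, where 7.1% of all genes fell and 10.9% rose. The list's medians were -1.78 and -1.89, against 0.07 and 0.02 over all genes. Runx3, a driver of cytotoxic fate, changed by -1.93 with romidepsin at 30 nM (adjusted p = 0.000199). The genes of cytotoxic granules fell with vorinostat at 10 µM, Gzma with a change of -3.90 (adjusted p = 0.00842), Gzmb with -2.23 (adjusted p = 0.00914) and Prf1 with -2.76 (adjusted p = 0.0223). In CD8 cells 2 effector-side genes rose and none fell with vorinostat at 2 µM, where 2.55% of all genes rose. These were Tbx21, which encodes T-bet and rose by 2.24 (adjusted p = 0.00254), and Il2ra, the high-affinity IL-2 receptor chain, which rose by 1.86 (adjusted p = 0.0197). With vorinostat at 10 µM neither passed without the block, at 1.01 and -0.20 (adjusted p = 0.0626 and 0.839). With the block Tbx21 passed there (adjusted p = 0.00272) and Il2ra did not (adjusted p = 0.615).

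Of 10 tested memory-side genes, 1 fell and none rose in CD4 cells at each of the highest doses, a share near the 7.91% (romidepsin) and 7.1% (vorinostat) of all genes that fell. With the block 2 rose and 5 fell at each of these doses. Of all genes 35.4% rose and 28.3% fell with the block at romidepsin 30 nM, and 32.0% and 29.2% at vorinostat 10 µM. Il7r, the IL-7 receptor chain of memory precursors, changed by -4.82 with romidepsin at 30 nM (adjusted p = 0.0206) and by -4.66 with vorinostat at 10 µM (adjusted p = 0.0281). In CD8 cells 2 of the 10 fell with vorinostat at 10 µM, where 8.49% of all genes fell, Il7r with a change of -4.90 (adjusted p = 0.0193) and Lef1, a partner of TCF-1, with -1.95 (adjusted p = 0.0265). The list's median was -1.35 there and 0 over all genes.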

How the data were processed

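Expression was measured on 28 Affymetrix arrays of 45101 probe sets. The authors deposited GCRMA values, per the submitters' processing notes, with no version or settings given; they were read as log2 values, a base that the deposited table does not state. GCRMA's background step pulls undetected probe sets to a floor, so low values and their differences are compressed.

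Probe sets naming 1 gene (34945, by the platform annotation and RefSeq tables) gave 18193 genes, each by its brightest probe set. The 9877 genes over the detection level in at least 2 arrays were tested with limma 3.58.1 in R 4.3.3, in 1 fit with a mean per group (14 residual degrees of freedom). Probe sets naming several genes (932) or none (9160) were left out.

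Equal replicate numbers pair the arrays: deviations of replicate 1 arrays from their group means correlated at 0.762 to 0.94 between CD4 groups and 0.768 to 0.958 between CD8 groups, and the first principal component (41.2% of the variance) separated the numbers. The labels do not state what the numbers share. The arrays numbered replicate 1 had a common minimum of 2.2684. For those numbered replicate 2 the shared floor was 2.2545. Separate normalization of these sets was not tested. The alternative fit adds a term for the replicate number, per cell type, as a block (12 residual df).

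The members, lists and tests were chosen with earlier results of these data known. Named genes are the 7 members, the 3 genes most correlated with each over the 14 group means, and up to 4 called genes per list and cell type, by size of change at the middle doses. Alternatives were quantile normalization, equal array medians, other filters, the mean of all probe sets, each other probe set and each array left out. Tested on simulated data for CD4 cells with romidepsin at 10 nM over 9877 genes, the fit without the block found 11.1% of the changed genes at a fold of 2, 50.3% at 4 and 76.3% at 8, with 0 false calls in 5 simulations. The fit with the block found 78.9%, 95.3% and 100%, with 65 false calls. The simulated arrays were drawn from the model with the block, which favours that fit. The figures therefore do not rate the fits on the real arrays.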

Additional observations from a re-analysis of the deposited data

Results flagged for a closer look

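In 4 comparisons the drug response differed between CD8 and CD4 cells by the interaction test in limma, over 28 arrays and 9877 genes. For Irf4 the CD8 response exceeded the CD4 response by 2.07 with romidepsin at 30 nM (adjusted p = 0.00329) and by 1.84 with vorinostat at 10 µM (adjusted p = 0.00778), in the same direction in both replicate numbers (2.28 and 1.86, then 1.74 and 1.94). For Id2 it did so by 2.30 with romidepsin at 30 nM (adjusted p = 0.0238) and by 2.20 with vorinostat at 10 µM (adjusted p = 0.0462), by 3.16 and 1.44 and by 2.90 and 1.5 within the replicate numbers. The Id2 difference joins a rise in CD8 cells with a fall in CD4 cells, while the Irf4 difference by its brightest probe set is a rise in CD8 cells beside CD4 changes of -0.20 and 0.07. By the other Irf4 probe set the differences were 3.42 (adjusted p = 0.0125) and 2.94 (adjusted p = 0.0454), with falls in CD4 cells. The other Id2 probe sets gave 2.90 and 0.99 with romidepsin and 2.67 and 1.92 with vorinostat, and none of these passed without the block. The values 0.99 and 1.92 are from a probe set over the detection level in only 10 arrays. With equal array medians all 4 calls were lost, and with the mean of all probe sets both Id2 calls.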

How the results depend on the processing

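With the replicate block the counts of calls on the 7 genes went from 5 to 13 in CD4 cells against control, from 4 to 14 for the response difference, from 2 to 5 for CD4 dose steps and from 1 to 10 for CD8 dose steps. With equal array medians they were 3, 1, 2 and 0, with quantile normalization 0 CD8 dose steps passed, and with the mean of all probe sets 2 response differences did. Leaving out 1 array gave 3 to 5 CD4 calls, 7 to 15 CD8 calls (7 and 8 without a control array), 2 to 4 response differences, 1 to 2 CD4 steps and 0 to 2 CD8 steps. Single values of Id3 changed sign without 1 array: they ranged from -0.08 to 1.08 in CD4 cells with romidepsin at 10 nM, and from -0.06 to 1.01 in CD8 cells at 30 nM, where -0.01 also occurred. In the fit without the block, a group that loses an array keeps a single replicate number. The difference between replicate numbers then enters the change, and the Id3 control arrays lay 1.15 apart in CD4 and 1.07 apart in CD8 cells. In the fit without the block, Irf8 in CD4 cells against control at its 3 called doses, Irf4 in CD8 cells at romidepsin 30 nM and vorinostat 2 and 10 µM, Prdm1 and Irf8 in CD8 cells at the highest doses and the control differences of Irf4, Prdm1 and Bcl6 kept their calls under every alternative run. With the block and 1 array left out, 139 of 144 values kept their call and all 144 their sign; the 5 lost were Id2 changes against control. Signal near the detection level limits Prdm1 in CD8 and Zeb2 in CD4 cells, and with 2 arrays a group the 95% interval of a difference reached a median of 0.97 to each side.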
